A study of Cyanidioschyzon merolae with 8 samples.

Results

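Of 4793 nuclear gene IDs measured in the red alga Cyanidioschyzon merolae, a single-celled inhabitant of hot acid springs, 9 were close to silent in darkness in 2 experiments and carried a clear transcript signal after 30 min of blue and of red light. The 9 genes were chosen by their values. They were sought on chromosomes 1 to 20, stood under 10 FPKM in both dark controls and reached at least 40 FPKM under both lights. FPKM is a count of sequenced fragments corrected for the length of the transcript and the size of the library, so levels can be compared between genes. The whole table holds 5092 gene IDs.

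All cells were wild type of strain 10D, cultured at 42 °C and pH 2.3 in constant light and then moved to darkness, for 36 h as the protocol states for the blue experiment. The 8 libraries form 4 groups of 2 biological replicates, namely cells lit with blue light at 15 µmol m-2 s-1, their dark-kept counterpart (the blue control), cells lit with red light, whose intensity the labels do not give, and their own dark-kept counterpart (the red control). The labels give the wavelength of the intensity measurement as 365 nm for blue and 630 nm for red light. RNA was captured by its poly(A) tail. The deposited table joins both replicates of a group into 1 FPKM value, so no value below has an SD, no test over libraries could be made, and sequencing depth is unknown.

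C. merolae lives by photosynthesis. Chlorophyll absorbs blue and red light, and the antennae of red algae add pigments that take up orange and red light, so both colours can drive photosynthesis. Cryptochromes, by contrast, are known as receptors of blue light. A dark-kept algal cell that is lit again meets an energy supply, excitation of its pigments and photoreceptor signals together. The files and the reference gene table give no product or role for any of the 9 IDs, which are therefore described by ID, position, level and neighbourhood.

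The rule used the dark and the lit value of both experiments, so the levels and ratios of the 9 genes are a description and no evidence that they respond. What the rule did not fix is how far above 40 FPKM a gene went, which light gave the higher level, how long the genes are, where they lie and what the genes beside them did.

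The 2 genes with the highest levels under both lights were CMT305C and CMO306C. CMT305C lies on chromosome 20 at 772120 to 773418, and its level was 4.82 FPKM in the blue control, 776 under blue light, 6.13 in the red control and 192 under red light. CMO306C, on chromosome 15 at 763738 to 764899, stood at 4.55, 953, 4.19 and 189 FPKM in the same order. Ranked among all nuclear IDs, CMO306C moved from percentile 6.01 to percentile 95.7 in the blue experiment and from 5.84 to 77.4 in the red experiment. CMT305C moved from percentile 6.22 to 94.4 and from 6.76 to 77.7. Both thus went from among the lowest nuclear levels to among the highest under blue light and to well above the median under red light. The genome build behind the files' positions is not stated in the labels, and exon structure was not analysed here.

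Next by their level under red light were CMQ233C, CMQ045C and CMJ309C. CMQ233C, on chromosome 17 at 587108 to 588622, stood at 6.81 FPKM in the blue control, 219 under blue light, 3.39 in the red control and 72.5 under red light. CMQ045C, on the same chromosome at 108256 to 109139, stood at 2.54, 114, 6.05 and 71.6 FPKM. It was the member with the smallest gap between the lights. CMJ309C, on chromosome 10 at 807871 to 808785, stood at 1.94, 243, 0.81 and 54.0 FPKM. This gene had the lowest dark values of the 6 members that are alone in their locus.

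The other 4 members sat just above the lit bound under red light. CMG014C, on chromosome 7 at 39591 to 40295, stood at 6.80, 75.6, 6.06 and 43.9 FPKM. CMG189C, in a shared locus on chromosome 7 at 488256 to 492403, stood at 9.53, 99.9, 8.81 and 42.2 FPKM and was the member nearest to the dark bound. CMC158C, on chromosome 3 at 383431 to 384538, stood at 5.03, 144, 1.28 and 41.9 FPKM. CMG001C, whose locus in the files is on chromosome 15 at 679769 to 681815, stood at 0.0096 FPKM, 72.4, listed at 0 and 41.0 FPKM, so its ratio gives no size of change, and the blue median below is also given without it.

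**Figure D1:**
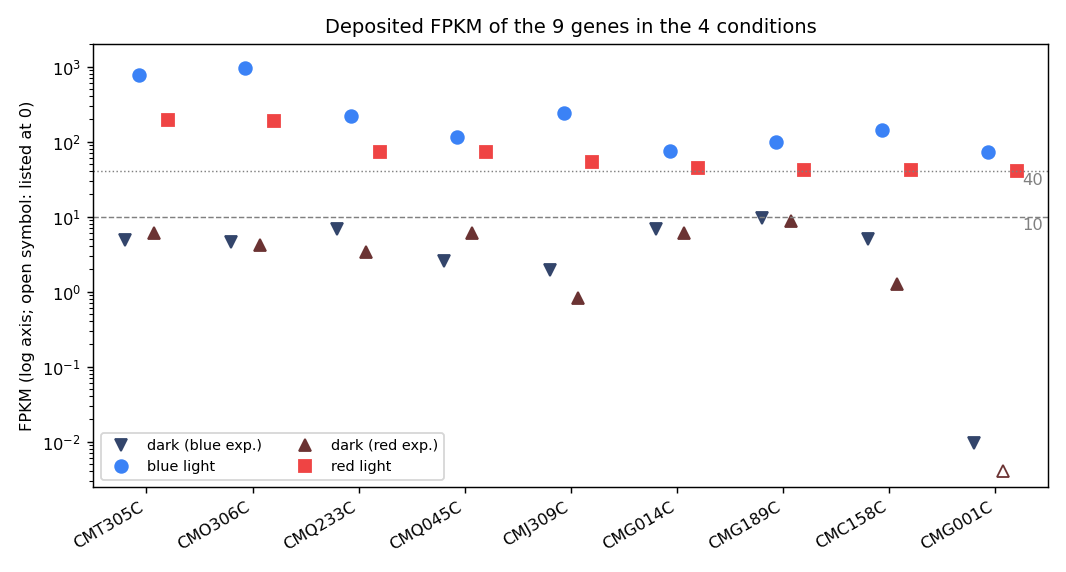
Deposited FPKM (log axis) of the 9 genes in the blue control, under blue light, in the red control and under red light, 1 value per condition and with no error bar because replicates were joined before deposit. The dashed and dotted lines mark the bounds of 10 and 40 FPKM. CMT305C and CMO306C stand clear of the other 7 under both lights, and the blue symbol lies above the red symbol for all 9.

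Off in the dark did not mean a value of 0 for most of them. With depth unknown, the number of fragments behind these low values is not known. The dark values of the 9 genes ran from 0.0096 to 9.53 FPKM in the blue experiment, with a median of 4.82, and from 0 to 8.81 in the red experiment, with a median of 4.19. The medians of all nuclear IDs were 99.2 and 112 FPKM. Of the 9, 7 had the lower dark value in the red experiment, and the share over all nuclear IDs was not counted. The lit values ran from 72.4 to 953 FPKM under blue light, with a median of 144, and from 41.0 to 192 under red light, with a median of 54.0, beside nuclear medians of 97.2 and 98.8. Under blue light 2 of the 9 were below the nuclear median and under red light 7 were, so most stood above that median under blue light and below it under red light. In RNA from whole cultures, fewer expressing cells and less RNA per cell cannot be told apart.

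**Figure D2:**
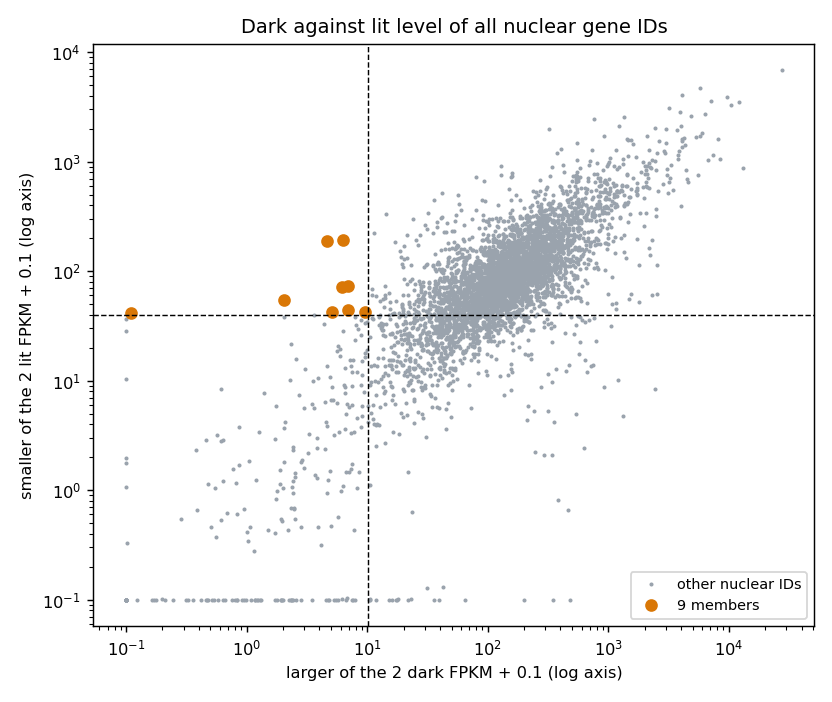
Each nuclear gene ID by the larger of its 2 dark values and the smaller of its 2 lit values, both in FPKM plus 0.1 on log axes. Dashed lines mark the bounds of the rule, and the 9 members fill the upper left corner, CMG001C far to the left of the others.

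In the authors' deposited table, genes count here as risen where they were tested, were higher in light and had a q-value under 0.05. Under blue light 6 of the 9 members rose, beside 22.2% of the 4445 nuclear genes tested. Under red light 5 rose, beside 14.5% of 4389. The 4 that rose under both lights were CMO306C, CMT305C, CMQ233C and CMG189C, beside 10.5% of the 4355 nuclear genes tested in both. At a q-value under 0.01 the members risen were 5 and 4, beside 16.6% of nuclear genes under blue and 9.57% under red light. With p-values adjusted by Benjamini-Hochberg within each comparison they were 6 and 6, beside 22.7% and 15.1%. Because the rule picked large ratios, nothing is read from these counts.

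The deposited q-values did not follow the size of the ratio. CMG189C had the smallest ratios of the 8 genes with a ratio in both experiments, 10.5-fold under blue and 4.79-fold under red light, and the lowest q-value of the authors' deposited table, 0.00045, in both. CMJ309C had far larger ratios, 125-fold and 66.6-fold, with q = 0.199 and q = 0.357 in the authors' deposited table. In the reference table CMG189C has the longest coding region of the members at 3528 bases and CMJ309C one of the shortest at 762 bases. The measured locus of CMJ309C spans 915 bases at another position. The part of length in the q-values was not tested. CMC158C rose 28.5-fold under blue light with q = 0.00636, and its 32.8-fold ratio under red light had q = 0.197. CMQ045C was the reverse, 44.7-fold with q = 0.314 under blue light, and risen 11.8-fold with q = 0.0151 under red light. CMG014C rose 11.1-fold under blue light with q = 0.0193 and missed the threshold under red light at 7.25-fold with q = 0.051. CMG001C passed under neither light, with q = 0.484 and q = 0.271.

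This unevenness was shared by other genes that start low. Among nuclear genes tested under blue light with a dark value under 10 FPKM and a ratio of at least 8-fold, 43 of 61 had a q-value under 0.05 in the authors' deposited table, and with a higher dark value 87 of 88 did. Under red light the counts were 22 of 33 and 40 of 42. A member that missed the threshold is therefore not shown to be unresponsive.

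The log2 ratio of light over dark had a median of 5.48 over the 9 members under blue light and of 4.69 over the 8 with a ratio under red light. The medians over nuclear genes tested were -0.01 and -0.26. The first median counts CMG001C, whose near-zero control puts it highest. It is 5.25 without that gene and 5.99 over the 6 members alone in their locus, beside 5.00 for these under red light. The ratio was at least 8-fold for all 9 members under blue light, CMG001C included, and for 6 of 8 under red light, the exceptions being CMG014C and CMG189C. The 6 members alone in their locus ran from 11.1-fold to 209-fold under blue light and from 7.25-fold to 66.6-fold under red light. CMO306C with 209-fold and CMT305C with 161-fold led under blue light, and CMJ309C with 66.6-fold and CMO306C with 45.2-fold under red light. Of the 8 genes with both ratios, 7 had the larger one under blue light, and CMC158C was the exception.

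All 9 members had the higher lit level under blue light, by 1.59-fold for CMQ045C up to 5.04-fold for CMO306C, with a median of 3.02-fold. The gap was widest for CMO306C, CMJ309C with 4.50-fold and CMT305C with 4.05-fold, and narrowest for CMQ045C, CMG014C with 1.72-fold and CMG001C with 1.77-fold. Over the 3661 nuclear genes at 40 FPKM or more under both lights, 42.9% were higher under red light. Another 114 genes with at least that lit level had ratios of at least 4-fold under both lights, and 107 of them were also higher under blue light. Their median log2 difference, red minus blue, was -1.46, beside -1.60 for the members and -0.13 over the 3661 genes. The difference between these sets was not tested. The lights came from separate experiments and the intensity of the red light is not known, so the colour cannot be told apart from either.

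Most genes that were silent in the dark stayed so. Of 309 nuclear IDs under 10 FPKM in both dark controls, 230 were also under 10 FPKM under both lights, 79 of these being listed at 0 in all 4 conditions. A further 34 reached 40 FPKM under at least 1 light, and the 9 members are those that did so under both. Under blue light 32 of the 34 reached it, and under red light 11. The other 45 lay between these bounds.

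**Figure D3:**
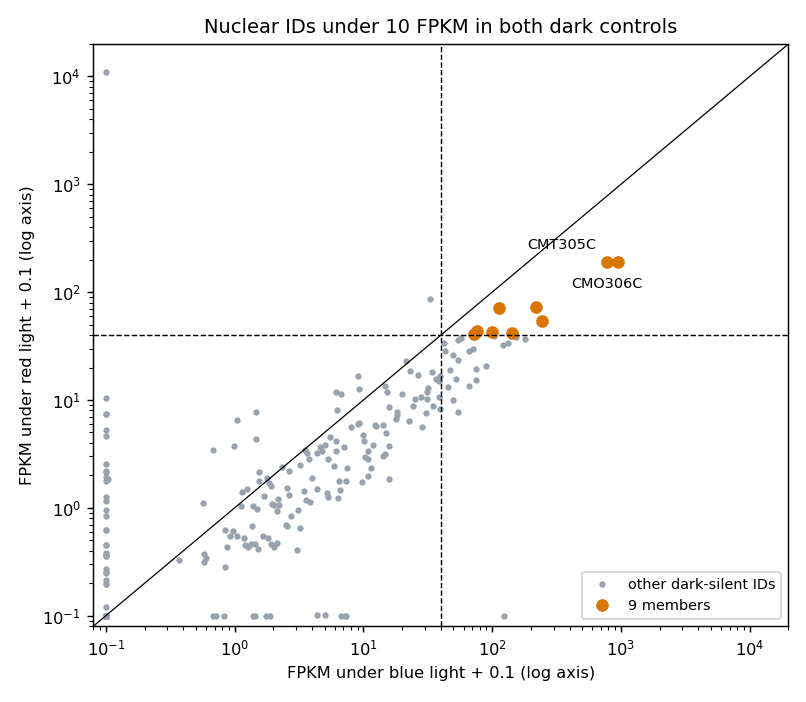
FPKM plus 0.1 under blue light against red light, on log axes, for the 309 nuclear IDs under 10 FPKM in both dark controls. Dashed lines mark 40 FPKM and the solid line equal levels. The 9 members lie below the line of equal levels, and a tail of other IDs approaches the red bound from below.

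The edges of the group are soft. Just inside the dark bound lay CMG189C with a larger dark value of 9.53 FPKM, CMQ233C with 6.81 and CMG014C with 6.80, and just outside it CMN283C with 10.7, CMP354C with 10.8 and CMK188C with 11.3. CMK188C had higher lit levels than any member, at 11.3, 979, 9.24 and 220 FPKM in the order used above. Just inside the lit bound lay CMG001C with a smaller lit value of 41.0 FPKM, CMC158C with 41.9 and CMG189C with 42.2. Just outside were CMJ134C with 39.3, CMR293C with 38.3 and CMG015C with 37.7.

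The coding lengths of the 8 members found in the reference table ran from 705 to 3528 bases with a median of 1134, beside 1278 for 4752 nuclear IDs with a length. The middle quartiles of the nuclear lengths span 828 to 1938 bases and hold 4 of the 8 members. The members are spread over 6 chromosomes, and none is the nearest gene of another.

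The genes beside the members often answered the light as well. Each member has a nearest gene on either side outside its own locus, 18 genes in all, none of which is a member. Under blue light 10 of these rose and 1 fell at a q-value under 0.05 in the authors' deposited table, among 18 tested, which is 55.6% risen beside the 22.2% of nuclear genes. Under red light 6 rose and 3 fell among 17 tested, 35.3% risen beside 14.5%. Beside the 6 members alone in their locus, 8 of the neighbours rose under blue and 4 under red light. The median log2 ratio of the neighbours was 0.86 under blue and 0.37 under red light, beside 0.00 and -0.24 over nuclear IDs with a ratio. When the nearest 2 genes on either side were taken, the medians were 0.47 and -0.055.

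The same 6 neighbours that rose under red light also rose under blue light, and they stand beside 6 different members. CMC157C, before CMC158C, went from 10.4 to 120 FPKM in the blue experiment and from 2.66 to 24.8 in the red experiment. CMT304C, before CMT305C, went from 16.0 to 140 and from 4.45 to 40.2 FPKM. CMQ044C, before CMQ045C, went from 6.14 to 65.9 and from 6.22 to 28.3 FPKM. CMG015C, after CMG014C, went from 7.82 to 56.9 and from 7.82 to 37.7 FPKM. CMJ308C, after CMJ309C, was listed at 0 in both dark controls and stood at 181 FPKM under blue and 36.3 under red light, with q = 0.00045 for both in the authors' deposited table. CMO268C, after CMG001C, went from 28.0 to 132 and from 39.3 to 82.9 FPKM, and it had the highest dark levels of the 6. The others had low dark levels like the member they adjoin, at most 16.0 FPKM, and a lower lit level than that member under both lights. The rule fixed part of this. CMQ044C, CMG015C and CMJ308C were under 10 FPKM in both dark controls. As they are not members, they had to be under 40 FPKM under at least 1 light.

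Gaps to these 6 neighbours ran from 132 to 1310 bases in the files' coordinates. Of the 7 neighbours less than 500 bases away, 5 rose under both lights, beside 10.5% of the 4355 nuclear genes tested in both. The share among other genes lying this close together was not counted. The gap of 132 bases is that of CMJ308C to CMJ309C, whose position differs in the reference table. Without CMJ309C the smallest gap was 175 bases, that of CMO268C to CMG001C. In that setting 4 of 6 neighbours less than 500 bases away rose under both lights. The exceptions were CMG012C, 430 bases before CMG014C, with 218 FPKM in the dark and 163 under blue light, and CMQ048C, 435 bases after CMQ045C, with 85.5 and 101 FPKM. No strand-specific library step is described, and where transcripts of adjacent genes overlap their reads may be mixed. The part of such overlap in these values was not tested.

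Rises also extended over several genes in a row. From CMC156C to CMC159C, 4 consecutive genes rose under blue light with a q-value under 0.05 in the authors' deposited table. CMC156C went from 20.1 to 70.3 FPKM, CMC157C from 10.4 to 120, CMC158C from 5.03 to 144 and CMC159C from 4.55 to 66.4. Levels were highest at CMC158C under light, and CMC160C, the next gene, stood at 133 FPKM in the dark and 86.3 under blue light with q = 0.121. Under red light CMC156C and CMC157C passed the threshold, CMC158C did not, and CMC159C at 1.01 and 13.5 FPKM was not tested. After CMG001C, which itself passed the threshold under neither light, the 3 genes CMO268C, CMO269C and CMO270C rose under both lights. CMO269C went from 262 to 601 and from 161 to 389 FPKM, and CMO270C from 28.1 to 119 and from 20.9 to 57.1 FPKM, in the blue and the red experiment. This run reached the end of the 3 genes examined on that side. How common such runs are over all nuclear genes was not counted.

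A risen neighbour was common near other light-raised genes too. Under blue light 8 of the 9 members, 88.9%, had a risen gene next to them, beside 37.5% of all nuclear IDs and 54.8% of the 124 other genes that rose at least 8-fold. For red light these shares were 6 of the 9 members, 25.1% of nuclear IDs and 43.1% of the 58 other genes that rose at least 8-fold. A neighbour risen under both lights stood beside 6 of the 9 members, 66.7%, and beside 18.6% of nuclear IDs. Among the 459 genes that themselves rose under both lights, with no fold bound and 4 members included, the share was 28.1%. With 9 genes these shares are coarse, and the difference was not tested.

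**Figure D4:**
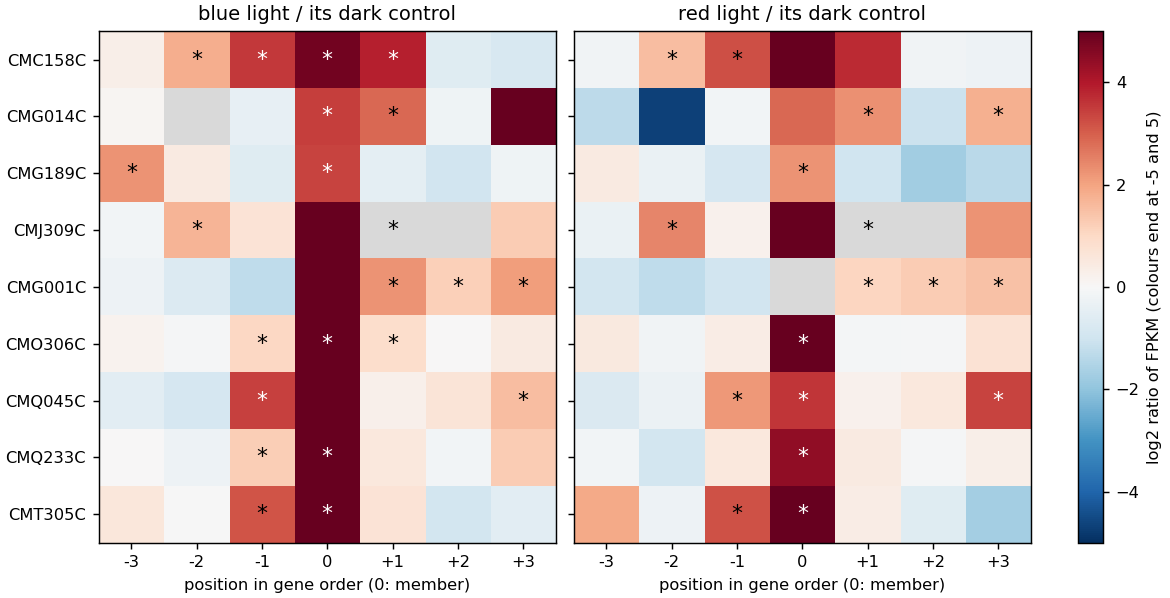
Log2 ratio of FPKM of each member (position 0) and of the 3 genes before and after it in the order of the files, outside its own locus, under blue light (left) and red light (right). Stars mark genes risen at a q-value under 0.05 in the authors' deposited table, grey cells have no ratio because a value is listed at 0, and CMC158C shows stars on both sides under blue light.

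The values of 3 members have to be read with their locus. CMG189C shares its locus with CMG188C, which rose from 26.2 to 279 FPKM under blue light and from 19.0 to 173 under red light, at q = 0.00146 and q = 0.00379 in the authors' deposited table. Both IDs thus rose under both lights. In the reference table they are adjacent coding regions of 624 and 3528 bases that overlap only at their ends. CMG188C is therefore also a gene beside a member, but as part of the same locus it was left out of the neighbour counts. The summed FPKM of the pair went from 35.8 to 379 and from 27.8 to 216, a sum over genes of unlike length. CMQ045C shares its locus with EPlCMEG00000000073, which is listed at 0 in all 4 conditions, and its values are thus those of the locus.

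CMG001C is the uncertain member. Its locus is the same as that of CMO267C, which stood at 166 and 290 FPKM in the blue experiment and at 646 and 476 in the red experiment, with q = 0.0662 and q = 0.436 in the authors' deposited table. Together they went from 166 to 363 FPKM and from 646 to 517, so the locus did not go from silent to expressed, and the low dark value of CMG001C depends on how fragments were divided between the IDs. The third letter of nuclear IDs follows the chromosome, and that of CMG001C stands for chromosome 7, whereas the files place it on chromosome 15. It is 1 of 2 such cases among 4759 IDs. The reference table has no entry for it.

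The position of CMJ309C differs between sources. The reference table places it after CMJ308C and the files before it. The IDs are adjacent in both. With IDs of the member's own locus left out, 14 of 16 nearest protein-coding neighbours are the same in files and table. The exceptions are those of CMJ309C. Leaving out such IDs sets aside CMG188C, which directly precedes CMG189C in the reference table.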

How the data were processed

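RNA of 8 libraries in 4 groups was measured by sequencing. Cuffdiff, TopHat, TopHat2 2.0.5, Trimmomatic 0.32 and FastQC 0.11.5 are named, per the submitters' processing notes; neither build nor annotation is stated there. The authors deposited FPKM, 1 value per condition, and a p-value and q-value per gene and comparison, the smallest p-value being 5e-05. The deposited table holds no library counts, and at best 27.0% to 29.0% of 300 low values per condition came within 0.1 of whole fragments, so depth was not recovered.

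The 9 members follow from bounds of 10 and 40 FPKM. Ratios are log2 of light over dark FPKM with no pseudocount, without genes listed at 0. The authors' calls are a q-value under 0.05. Starts are the files' starts plus 1. IDs, positions and gene order are those deposited. Coding lengths and the check of nearest neighbours come from the RefSeq table of assembly ASM9120v1. It matched 4752 nuclear IDs by locus tag, and its coordinates are not printed. Nearly all its lengths, 99.6%, are multiples of 3.

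The members and lists were chosen with earlier results of these data known. All members are named; for edges the 3 genes nearest to each bound are given. The neighbour counts and the set of 114 other raised genes were chosen after values had been seen. Descriptions, promoters and proteins were not at hand, so key word lists, motif shares and protein likeness were not analysed here. Calculations used Python 3.11.15 with numpy 2.4.6 and pandas 2.3.3, and plots matplotlib 3.10.9; the code was tested on simulated data.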

Additional observations from a re-analysis of the deposited data

How the results depend on the processing

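The size of the group depends on its bounds. It held 3 genes with a dark maximum of 5 FPKM, 41 with 20, 25 with a lit minimum of 20 FPKM and 2 with 80. Scaling the conditions to the same nuclear median kept all 9 genes and added CMJ134C and CMP354C, and 6 genes are alone in their locus. The median log2 ratio under blue light was 5.02 with a pseudocount of 1 FPKM, 5.43 with 0.1, 5.50 centred on the nuclear median, 5.25 without CMG001C (an alternative chosen after seeing the data) and 5.99 for genes alone in their locus; under red light it was 4.23, 4.93, 4.96 and 5.00. With the nearest 2 genes on either side, the median log2 ratio of neighbours was 0.47 under blue light and turned from 0.37 to -0.055 under red light. No member was higher under red light in any setting tried. The alternatives on promoters and proteins were not run. No paired analysis was possible because the table holds 1 value per condition, and leaving out replicates could not be done for the same reason.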

Other observations

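Change from silent to expressed was commoner than the opposite. Taking each experiment alone, 72 nuclear IDs went from under 10 FPKM in the dark to at least 40 under blue light and 23 went the other way; under red light the counts were 36 and 3. No nuclear ID was at 40 FPKM or more in both dark controls and under 10 under both lights. These counts were chosen after values had been seen and have no test.

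Of the dark-silent IDs that reached 40 FPKM under 1 light only, 23 did so under blue light, with a median of 26.2 FPKM under red light, and 22 of these were higher under red light than in its dark control. The 2 that did so under red light only were CMK063C, which went from 1.61 to 32.8 FPKM in the blue and from 4.28 to 85.6 in the red experiment, and EPlCMEG00000000024, an untested locus of 77 bases listed at 0 in the other 3 conditions. CMR293C had one of the steepest ratios among those that missed the red bound, with 1.52 and 152 FPKM in the blue experiment, then 1.95 and 38.3 in the red, and q = 0.34 and q = 0.236 in the authors' deposited table.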
